A study of Homo sapiens with 9 samples.

Results

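The genes described are those of the small nucleolar RNAs (snoRNAs) of the box H/ACA class, with symbols starting in SNORA, and of the small Cajal body RNAs (scaRNAs), with symbols starting in SCARNA. Members were chosen by symbol and by a sum of at least 30 raw counts over the 9 RNA-seq libraries, and 58 of the 131 SNORA and SCARNA rows qualified, in a table of 30017 genes. They comprised 52 SNORA and 6 SCARNA genes. The sum that chose them pooled the 3 groups, so a gene with high counts in 1 group qualified more easily, and the class was picked with earlier results of these data known. Their counts of calls are therefore given as a description beside the same counts over all genes. Just inside the minimum were SNORA74A with 38, SNORA23 with 33 and SNORA5B with 31 counts in all. Just outside it were SNORA22 with 26, SNORA2B with 25 and SCARNA8 with 24.

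H/ACA snoRNAs fold into a pair of hairpins joined by a short single-stranded H box and closed by an ACA triplet near the 3' end. They bind dyskerin (DKC1) with NHP2, NOP10 and GAR1, and most guide the conversion of uridine to pseudouridine in ribosomal RNA. Nearly all human members are cut from introns of host genes, many of which encode ribosomal proteins and translation factors, and the mature RNA has no poly(A) tail of its own. scaRNAs act in Cajal bodies on the spliceosomal RNAs. The SCARNA symbol also covers RNAs that are not purely H/ACA: SCARNA9 is of the box C/D class, and SCARNA10 and SCARNA12 carry both kinds of domain.

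The cells were MOLM13, a human acute myeloid leukemia line, transduced with the lentiviral vector pLKO.1-GFP and sorted for GFP on day 4. Each group had 3 libraries, with replicate letters A, B and D: sh-Control cells carried a control hairpin, and shDDX41 #1 and shDDX41 #2 cells 1 of 2 hairpins directed at DDX41, the gene of an RNA helicase. All groups thus shared the cell line, vector, transduction and sort, and the controls carried a hairpin too. The labels do not say whether the libraries of a group came from separate transductions, so p-values measure the spread between these libraries. DDX41 itself had 115 ± 1.76 CPM (counts per 1000000 counts of a library, scaled by edgeR's TMM factors; mean ± SD, n = 3) in sh-Control, 11.7 ± 1.56 with shDDX41 #1 and 40.4 ± 1.85 with shDDX41 #2. The libraries held 16385238 to 20510032 counts. All 10 myeloid markers examined were at or above 1 CPM in every library, and 9 of 11 markers of other cells were below 1 CPM throughout. The exceptions were the epithelial marker KRT18, at 13.2 to 17.6 CPM, and the T cell marker CD3D, at 0.239 to 2.06 CPM.

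Between 0.005017% and 0.01366% of a library's counts fell on the 58 members. The tested members had from 1 to 169 counts in a library, and 25 of them had fewer than 10 in at least 1 library, so counting error is large for most of them. Because the libraries were made from poly(A)-selected RNA, the values describe what passed that selection, as mature snoRNA, precursor or host transcript that spans the gene, and these forms cannot be told apart in gene counts. In bulk RNA, a change in how many cells carry an RNA and a change in its amount per cell cannot be told apart either.

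Positions and sequences were taken from GENCODE release 29 on GRCh38, in which 57 of the 58 members matched 1 locus by name. The first 6 sequences are the members with the smallest adjusted p against sh-Control. Capitals mark the ACA triplet 3 bases before the 3' end and the match to ANANNA, the H box letters, nearest the middle. SNORA64 lies at chr16:1962973-1963106 (minus strand) within RPS2. SNORA1, at chr11:93732004-93732133 (minus strand), and SNORA8, at chr11:93732361-93732499 (minus strand), lie within TAF1D. SNORA26 is at chr4:52713249-52713370 (plus strand) in DANCR, SNORA73A at chr1:28507366-28507571 (plus strand) in SNHG3, and SNORA3 at chr11:8684227-8684356 (plus strand) in RPL27A.
SNORA64: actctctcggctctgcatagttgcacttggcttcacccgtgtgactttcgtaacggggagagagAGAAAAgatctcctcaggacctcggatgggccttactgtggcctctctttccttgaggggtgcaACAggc
SNORA1: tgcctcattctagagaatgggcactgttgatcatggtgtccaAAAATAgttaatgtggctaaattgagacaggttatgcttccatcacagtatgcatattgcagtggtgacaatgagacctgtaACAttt
SNORA26: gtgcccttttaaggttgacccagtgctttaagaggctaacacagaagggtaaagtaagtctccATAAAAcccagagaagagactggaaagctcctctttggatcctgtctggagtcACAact
SNORA73A: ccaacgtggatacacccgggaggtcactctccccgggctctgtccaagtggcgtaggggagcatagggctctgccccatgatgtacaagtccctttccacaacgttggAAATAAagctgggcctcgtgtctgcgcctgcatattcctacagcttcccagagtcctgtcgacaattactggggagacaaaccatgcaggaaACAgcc
SNORA8: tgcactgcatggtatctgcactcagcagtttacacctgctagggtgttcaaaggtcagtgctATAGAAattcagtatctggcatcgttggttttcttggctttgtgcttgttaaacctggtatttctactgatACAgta
SNORA3: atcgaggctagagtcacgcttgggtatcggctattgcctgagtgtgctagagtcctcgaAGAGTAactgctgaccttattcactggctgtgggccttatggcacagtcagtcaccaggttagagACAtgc

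A further 5 were chosen after their values were seen, since the text below turns on them: SNORA40, the member with the highest level, 3 that were lower with shDDX41 #2, and SCARNA12. SNORA40, at chr11:93735111-93735236 (minus strand), shares the TAF1D host with SNORA1 and SNORA8. SNORA70 is at chrX:154400281-154400415 (plus strand) in RPL10, SNORA41 at chr2:206162228-206162359 (plus strand) in EEF1B2, SNORA24 at chr4:118279190-118279320 (plus strand) in SNHG8, and SCARNA12 at chr12:6967337-6967606 (minus strand) in PHB2.
SNORA40: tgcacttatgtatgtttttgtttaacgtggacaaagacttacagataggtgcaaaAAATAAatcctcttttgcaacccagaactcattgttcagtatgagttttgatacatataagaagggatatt
SNORA70: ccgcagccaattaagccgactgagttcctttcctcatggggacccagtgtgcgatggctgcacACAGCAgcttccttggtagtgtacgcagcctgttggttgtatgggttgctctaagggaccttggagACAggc
SNORA41: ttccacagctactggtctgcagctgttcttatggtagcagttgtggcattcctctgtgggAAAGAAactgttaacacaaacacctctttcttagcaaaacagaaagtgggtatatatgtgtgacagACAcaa
SNORA24: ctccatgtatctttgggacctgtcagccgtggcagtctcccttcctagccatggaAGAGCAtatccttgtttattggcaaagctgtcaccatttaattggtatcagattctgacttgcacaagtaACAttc
SCARNA12: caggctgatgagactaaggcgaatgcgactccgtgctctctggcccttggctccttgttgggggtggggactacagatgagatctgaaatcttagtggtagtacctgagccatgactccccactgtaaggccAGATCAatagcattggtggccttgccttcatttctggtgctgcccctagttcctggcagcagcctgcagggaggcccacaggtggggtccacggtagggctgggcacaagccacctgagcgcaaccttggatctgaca

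The annotated SNORA40 and SCARNA12 sequences do not hold ACA at that distance from their ends. Among the 56 members for which a sequence was read, 40 (71.4%) had ACA there, against 107 of 142 annotated SNORA genes (75.4%) and 4 of 275 annotated SNORD genes (1.45%), the box C/D class. ANANNA, searched on the sense strand only, is a loose motif: it occurred in all 56 members, in 98.6% of SNORA genes and in 82.9% of SNORD genes. Members were 121 to 353 bases long, with a median of 133.5. In this annotation 30 members lay wholly inside an exon of some transcript of their host, 22 of them only in retained-intron transcripts, and 20 lay in introns throughout. Of those printed, SNORA26 is intronic in every annotated DANCR transcript, SCARNA12 lies partly in an exon, and the others lie within an exon of at least 1 host transcript.

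Summed over the 58 genes, levels were higher in each of the shDDX41 #1 libraries than in any other library. The sums were 54.1, 75.9 and 71.2 CPM in sh-Control A, B and D, 126, 134 and 110 CPM with shDDX41 #1, and 57.5, 51.0 and 56.4 CPM with shDDX41 #2. The means were 67.1 ± 11.5, 123.5 ± 12.1 and 55.0 ± 3.49 CPM (SD, n = 3 each). The shDDX41 #1 and sh-Control sums did not overlap and had a ratio of 1.84 (exact two-sided permutation p = 0.1, the smallest that 3 against 3 allows). The shDDX41 #2 and sh-Control sums overlapped, with a ratio of 0.82 (exact two-sided permutation p = 0.3). Both comparisons use the same control libraries. The 73 rows under the minimum, which the rule left out, summed to 2.33, 2.98 and 3.21 CPM in sh-Control, 5.0, 5.27 and 5.46 CPM with shDDX41 #1, and 2.32, 3.07 and 2.24 CPM with shDDX41 #2.

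**Figure D1:**
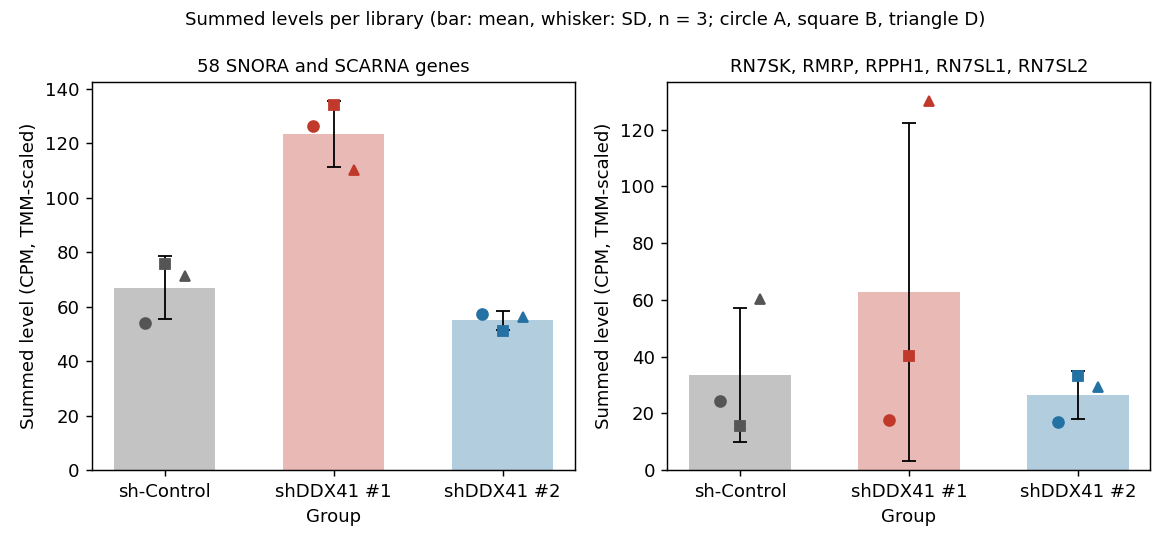
Summed level per library (CPM scaled by edgeR's TMM factors) of the 58 members and of 5 other small non-coding RNAs without a poly(A) tail. Points are libraries, bars means and whiskers SD (n = 3); the member sums of shDDX41 #1 (110 to 134 CPM) lie above all others, while the groups overlap for the other RNAs.

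To see whether RNAs without a poly(A) tail were higher in the same libraries, 5 such genes, chosen after the data were seen, were summed: RN7SK, RMRP, RPPH1, RN7SL1 and RN7SL2. Their sums were 24.5, 15.7 and 60.3 CPM in sh-Control, 17.7, 40.3 and 130 CPM with shDDX41 #1, and 17.0, 33.2 and 29.4 CPM with shDDX41 #2. The groups overlapped, with means of 33.5 ± 23.6 and 62.7 ± 59.5 CPM for sh-Control and shDDX41 #1 (exact two-sided permutation p = 0.6). Library D of shDDX41 #1 was the highest of the 9 for these RNAs and the lowest of its group for the members. In library A of shDDX41 #1 these RNAs, at 17.7 CPM, were within the range of the controls, while the members stood at 126 CPM. The ratio of group means to sh-Control was 1.87 with shDDX41 #1 and 0.791 with shDDX41 #2 for these RNAs. For the members it was 1.84 and 0.82. The spread of these RNAs between libraries was large, and a shared cause was not tested.

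With shDDX41 #1, many members rose, across hosts of different kinds. Of the 46 members that passed the filter on low counts, 27 were called higher than sh-Control at an adjusted p under 0.05 (edgeR quasi-likelihood test, Benjamini-Hochberg over 12712 genes) and 0 lower. In the same comparison 23.7% of all tested genes were called higher and 24.1% lower. At an unadjusted p under 0.05, 33 members were higher and 1 lower, and DESeq2 called 25 higher and 0 lower and limma voom 30 and 0. The median log2 fold change was 1.00 over the tested members and 0.01 over all tested genes, and 20 members were called with at least a 2-fold rise. The filter favours genes that are high in 1 group: in a fit without the shDDX41 #1 libraries, 29 rather than 46 members passed. The 12 members that did not pass the filter, namely SCARNA9, SNORA69, SCARNA27, SNORA55, SNORA71A, SNORA75, SCARNA15, SNORA76, SCARNA22, SNORA74A, SNORA23 and SNORA5B, summed to 3.09 ± 0.0285 CPM in sh-Control, 5.14 ± 1.03 with shDDX41 #1 and 2.83 ± 0.223 with shDDX41 #2.

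With shDDX41 #2 few members were called. There were 0 called higher and 3 lower, against 11.6% and 13.4% of all tested genes. At an unadjusted p under 0.05 there were 0 higher and 9 lower, and DESeq2 called 0 and 3 and limma voom 0 and 2. The median log2 fold change was -0.43 over the members and -0.01 over all tested genes. Compared directly, 33 of the 46 members were higher with shDDX41 #1 than with shDDX41 #2 and 0 were lower, against 24.6% and 24.2% of all tested genes. At an unadjusted p under 0.05 that comparison had 37 higher and 0 lower, and DESeq2 and limma voom each called 32 and 0. Without sh-Control B or D, or without shDDX41 #2 B, 1 of the falls with shDDX41 #2 was called, and without sh-Control A there were 6 calls, 5 of them lower.

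**Figure D2:**
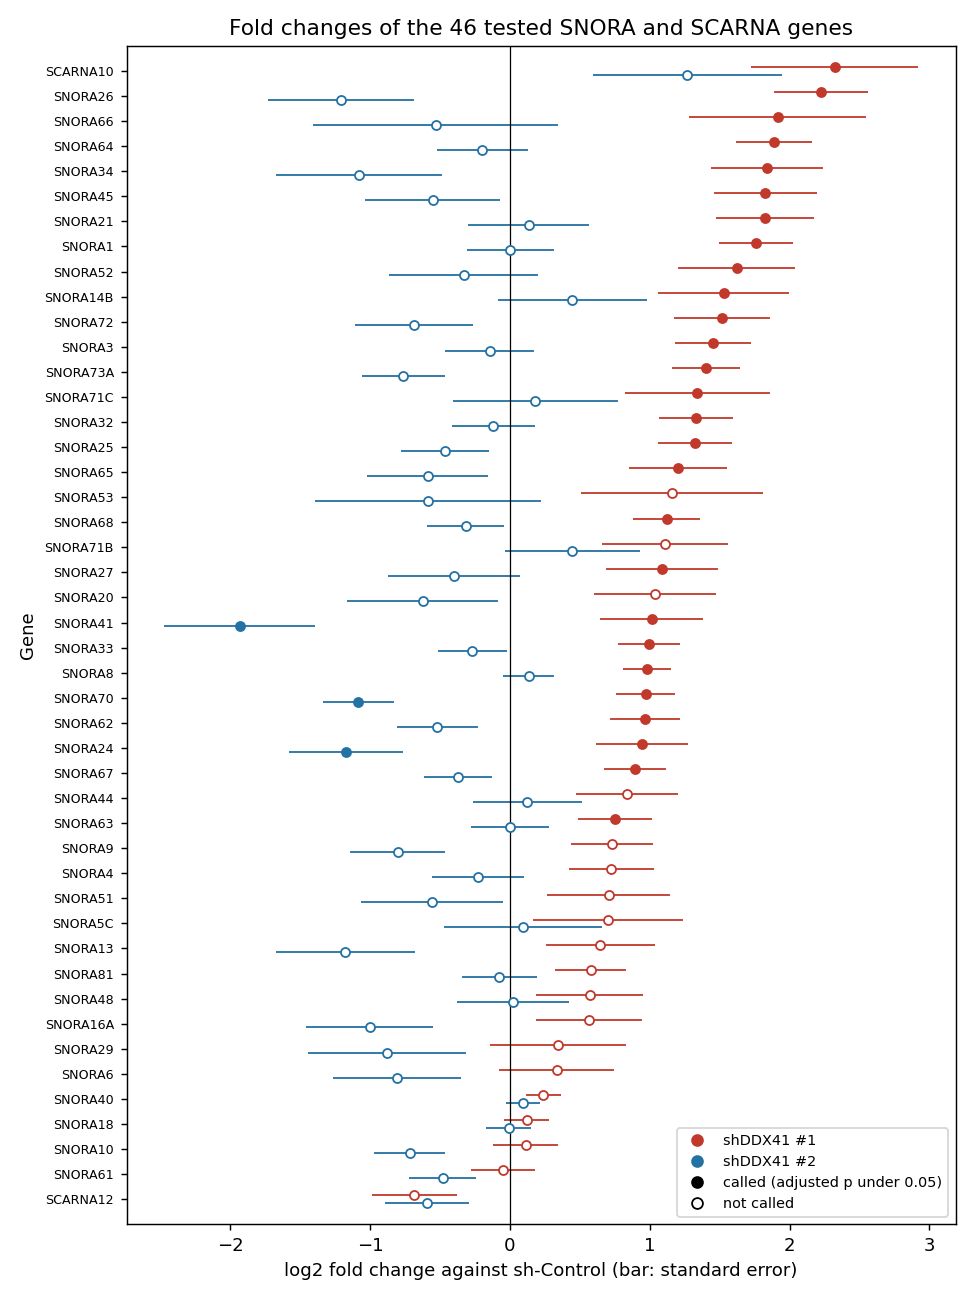
Log2 fold change against sh-Control of the 46 tested members (points, with standard errors), for shDDX41 #1 and shDDX41 #2, ordered by the former. Filled points have an adjusted p under 0.05; 27 are filled for shDDX41 #1, all above 0, and 3 for shDDX41 #2, all below 0.

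The member with the smallest adjusted p was SNORA64, a guide RNA encoded in RPS2, the gene of a small-subunit ribosomal protein. Its level was 1.11, 1.26 and 1.69 CPM in sh-Control A, B and D, 4.52, 6.11 and 4.49 CPM with shDDX41 #1, and 1.67, 0.645 and 1.27 CPM with shDDX41 #2. All shDDX41 #1 libraries lay above all others, and the other groups overlapped. The log2 fold change was 1.89 ± 0.27 (SE) with shDDX41 #1 (edgeR adjusted p = 5.09e-05) and -0.20 ± 0.33 with shDDX41 #2 (edgeR adjusted p = 0.705). SNORA10, from another part of the same host, had a log2 fold change with shDDX41 #1 below its standard error (0.11 ± 0.24, edgeR adjusted p = 0.719). It stood at 1.61, 1.66 and 1.63 CPM in sh-Control and 1.75, 1.56 and 2.0 CPM with shDDX41 #1. SNORA10 was at 1.13, 1.04 and 0.788 CPM with shDDX41 #2, below all controls (-0.71 ± 0.25, edgeR adjusted p = 0.0514, or 0.0428 when scaled by library size only). It is the 1 member that lies wholly in an exon of a protein-coding transcript, so reads of that transcript can fall on it. Of the 17 annotated RPS2 transcripts, only that 1 contains it.

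SNORA3 and SNORA45, which share the RPL27A host, both rose. Their sequences are 73.3% identical, and how reads that match both were counted is not given in the sources used here. SNORA3 was at 0.777, 1.20 and 0.790 CPM in sh-Control, 2.47, 2.99 and 2.12 CPM with shDDX41 #1 and 1.03, 0.793 and 0.667 CPM with shDDX41 #2. SNORA45 was at 0.278, 1.03 and 0.474 CPM in sh-Control, 2.41, 1.98 and 1.94 CPM with shDDX41 #1 and 0.540, 0.248 and 0.424 CPM with shDDX41 #2. In both, shDDX41 #1 lay above the other groups, which overlapped. Their log2 fold changes with shDDX41 #1 were 1.45 ± 0.27 (edgeR adjusted p = 0.000517) and 1.83 ± 0.37 (edgeR adjusted p = 0.000905).

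The members of ribosomal protein gene introns and exons were the class with the most calls. With shDDX41 #1, 13 of 15 such members were higher, by a median log2 fold change of 1.21, and the 2 that were not called were SNORA10 and SNORA6 of RPSA (log2 fold change 0.33). The share over all tested genes was 23.7%, and no difference between host classes was tested. The filter bears on this count, which is a description. SNORA21, SNORA52 and SNORA65, all called, had 4 to 10 counts in each library outside shDDX41 #1 and passed the filter through the shDDX41 #1 libraries. All 15 were called higher with shDDX41 #1 than with shDDX41 #2, against 24.6% of all tested genes. Of the hosts named here, RPS2 rose by 0.46, RPL27A by 0.64 and RPL10 by 0.49 on the log2 scale, below SNORA64, below SNORA3 and SNORA45, and below SNORA70 in turn, while SNORA10 was below RPS2 and SNORA6 below RPSA (0.53).

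Members in non-coding host genes were called higher with shDDX41 #1 in 4 of 10 cases. The counts were 4 of 6 in TAF1D, 3 of 6 in translation factor genes and 3 of 9 in other protein-coding genes, beside 23.7% of all tested genes. These counts are a description, and the same limit of the filter holds for them. SNORA26, in the long non-coding RNA gene DANCR, was at 0.389, 0.401 and 0.369 CPM in sh-Control, which is 7 counts in each library, 2.05, 2.16 and 1.27 CPM with shDDX41 #1, and 0.216, 0.149 and 0.121 CPM with shDDX41 #2. The 3 groups did not overlap. It rose with shDDX41 #1 (log2 fold change 2.22 ± 0.34, edgeR adjusted p = 8e-05), and with shDDX41 #2 its log2 fold change was -1.21 ± 0.52 (edgeR adjusted p = 0.104), resting on 2 to 4 counts a library.

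SNORA73A, which takes part in cleavage of the ribosomal RNA precursor rather than in its modification, lies in SNHG3. It was at 1.5, 1.89 and 3.21 CPM in sh-Control, 6.15, 6.64 and 4.79 CPM with shDDX41 #1 and 1.03, 1.49 and 1.39 CPM with shDDX41 #2. The 3 groups did not overlap, but the lowest control and the highest shDDX41 #2 library lay next to each other. The log2 fold change was 1.40 ± 0.24 (edgeR adjusted p = 0.000269) and -0.76 ± 0.30 (edgeR adjusted p = 0.0723; 0.0295 without sh-Control A). SNHG3 itself rose by 1.16 with shDDX41 #1. None of the 3 members of SNHG12 was called against sh-Control, with log2 fold changes between -0.05 and 0.84 for shDDX41 #1.

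TAF1D, the gene of a subunit of the RNA polymerase I selectivity factor, holds 6 members within a few kilobases, of which 4 were called higher with shDDX41 #1. SNORA40 had the highest level of all members, at 7.66, 7.63 and 7.32 CPM in sh-Control, 8.26, 10.1 and 8.31 CPM with shDDX41 #1 and 7.62, 8.18 and 8.36 CPM with shDDX41 #2. Each shDDX41 #1 value lay above each control, but by little (log2 fold change 0.24 ± 0.12, edgeR adjusted p = 0.123, or 0.0448 with upper quartile factors). SNORA18 was at 3.89, 5.96 and 5.0 CPM in sh-Control, 5.24, 5.57 and 5.34 CPM with shDDX41 #1 and 4.92, 5.16 and 4.67 CPM with shDDX41 #2, so the groups overlapped with the controls (0.12 ± 0.16 and -0.01 ± 0.16, edgeR adjusted p = 0.558 and 0.981).

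Beside them, SNORA1 was at 0.722, 1.20 and 0.790 CPM in sh-Control, 2.95, 2.57 and 3.70 CPM with shDDX41 #1 and 0.810, 1.04 and 0.848 CPM with shDDX41 #2. It rose with shDDX41 #1 (1.76 ± 0.26, edgeR adjusted p = 7.2e-05), its log2 fold change with shDDX41 #2 was 0.0047 ± 0.31 (edgeR adjusted p = 0.994), and the difference between the hairpins was 1.76 ± 0.26 (edgeR adjusted p = 6.66e-05). SNORA32 was at 1.61, 2.47 and 3.42 CPM in sh-Control, 6.03, 6.82 and 6.13 CPM with shDDX41 #1 and 3.24, 1.39 and 2.36 CPM with shDDX41 #2. Its rise with shDDX41 #1 was 1.33 ± 0.26 (edgeR adjusted p = 0.00074). SNORA25 was at 0.944, 1.61 and 1.58 CPM in sh-Control, 3.01, 3.53 and 3.82 CPM with shDDX41 #1 and 0.594, 1.19 and 1.21 CPM with shDDX41 #2, a rise of 1.32 ± 0.27 with shDDX41 #1 (edgeR adjusted p = 0.000837). In each of SNORA1, SNORA32 and SNORA25 the shDDX41 #1 libraries lay above all others, and the other groups overlapped.

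SNORA8 was at 2.50, 2.92 and 2.16 CPM in sh-Control, 4.76, 5.45 and 4.73 CPM with shDDX41 #1 and 2.76, 2.88 and 2.67 CPM with shDDX41 #2. It rose by 0.98 ± 0.17 with shDDX41 #1 (edgeR adjusted p = 0.00029), with no overlap between shDDX41 #1 and the other libraries. TAF1D itself rose by 0.70 ± 0.09 with shDDX41 #1 (edgeR adjusted p = 2.46e-05) and had a log2 fold change of 0.07 ± 0.09 with shDDX41 #2. Levels per kilobase in sh-Control ran from 59.8 CPM per kb for SNORA40 to 6.96 for SNORA1, with TAF1D, over all its annotated exons, at 8.54. Within 1 host, SNORA40 and SNORA18 thus had higher levels and smaller differences than SNORA32, SNORA25, SNORA8 and SNORA1. The difference between members was not tested. Among the 44 members with a tested host, 9 lay above their host per kilobase in sh-Control.

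**Figure D3:**
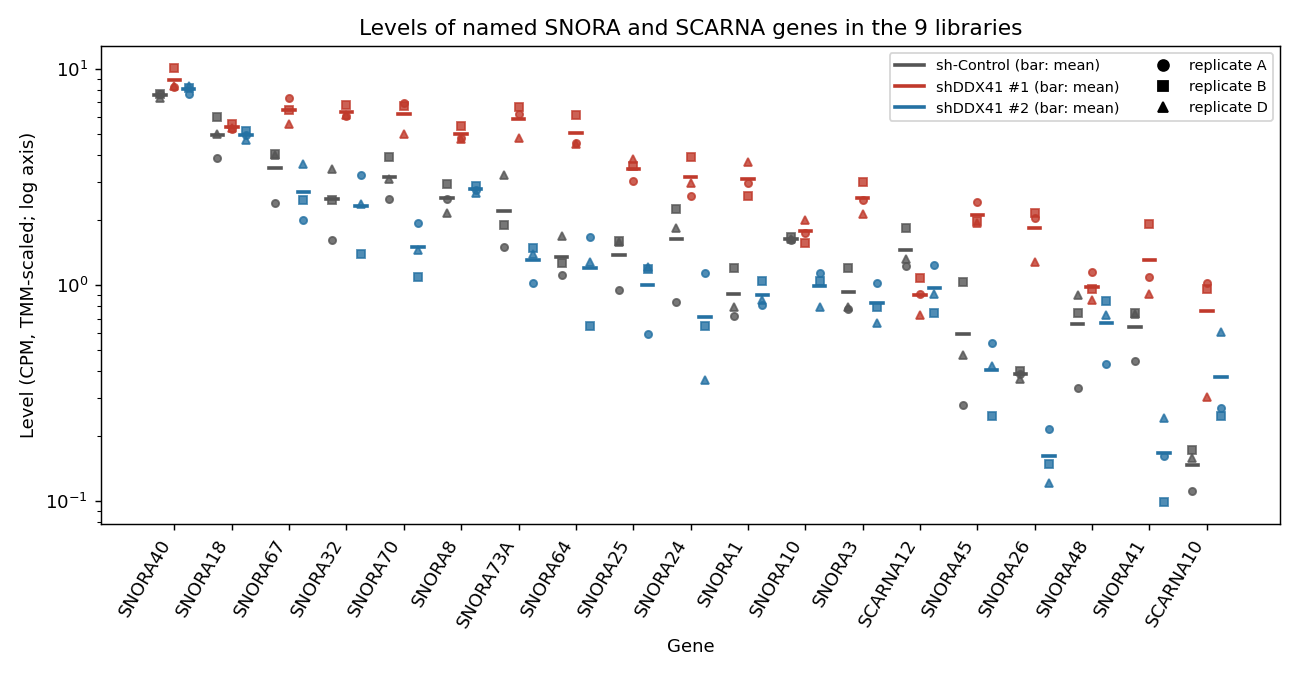
Level (CPM, log axis) of the 19 named members in each library, ordered by mean level; markers give the replicate letter and bars the group mean (n = 3). SNORA40 and SNORA18 are nearly level across the groups, whereas the mean of SNORA64 is 1.35 CPM in the controls and 5.04 CPM with shDDX41 #1.

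SNORA70, SNORA41 and SNORA24 were the members called in opposite directions against sh-Control with the 2 hairpins. Other members, SNORA26 and SNORA73A among them, also lay above the controls with shDDX41 #1 and below them with shDDX41 #2 without a call for the latter. SNORA70, in the gene of the large-subunit protein RPL10, was at 2.50, 3.90 and 3.11 CPM in sh-Control, 6.93, 6.70 and 4.97 CPM with shDDX41 #1 and 1.95, 1.09 and 1.45 CPM with shDDX41 #2. The 3 groups did not overlap. It rose by 0.97 ± 0.21 (edgeR adjusted p = 0.00157) and fell by 1.08 ± 0.25 (edgeR adjusted p = 0.00605) on the log2 scale, while RPL10 had a log2 fold change of 0.11 with shDDX41 #2.

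SNORA41, in EEF1B2, the gene of an elongation factor subunit, was at 0.444, 0.745 and 0.737 CPM in sh-Control, 1.08, 1.92 and 0.910 CPM with shDDX41 #1 and 0.162, 0.0992 and 0.242 CPM with shDDX41 #2, the last resting on 2 to 4 counts a library. The 3 groups did not overlap, and the log2 fold changes were 1.01 ± 0.37 (edgeR adjusted p = 0.034) and -1.93 ± 0.54 (edgeR adjusted p = 0.0167). SNORA24, in the non-coding gene SNHG8, was at 0.833, 2.24 and 1.84 CPM in sh-Control, 2.59, 3.89 and 2.97 CPM with shDDX41 #1 and 1.13, 0.645 and 0.364 CPM with shDDX41 #2. Its shDDX41 #2 libraries overlapped with sh-Control A, and the log2 fold changes were 0.94 ± 0.33 (edgeR adjusted p = 0.0279) and -1.17 ± 0.41 (edgeR adjusted p = 0.0469). Leaving out 1 library at a time, the rise and the fall of SNORA70 were called throughout. The SNORA41 rise was not called without any 1 control or without shDDX41 #1 B (edgeR adjusted p up to 0.217), nor its fall without sh-Control B or D or shDDX41 #2 A or B (up to 0.0807). By DESeq2 the SNORA41 rise was not called (adjusted p = 0.0765), and in a fit of the 6 libraries of shDDX41 #2 and sh-Control alone SNORA41 did not pass the filter, so its fall was tested only with the shDDX41 #1 libraries in the fit. The SNORA24 rise was not called without sh-Control A or shDDX41 #1 B (up to 0.118), nor its fall without any of 6 libraries, namely B and D of the controls, A and B of shDDX41 #1 and B and D of shDDX41 #2 (up to 0.192). The SNORA24 fall was also not called by limma voom (adjusted p = 0.0672) or with upper quartile factors (edgeR adjusted p = 0.0526). SNHG8 had log2 fold changes of 1.18 and 0.07 with the hairpins in turn.

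The members of EIF4A1, which encodes a helicase of translation initiation, were SNORA67 and SNORA48. SNORA67 was at 2.39, 4.01 and 4.00 CPM in sh-Control, 7.29, 6.47 and 5.58 CPM with shDDX41 #1 and 2.0, 2.48 and 3.64 CPM with shDDX41 #2, a rise of 0.89 ± 0.22 with shDDX41 #1 (edgeR adjusted p = 0.00392). All its shDDX41 #1 libraries lay above the rest. SNORA48 was at 0.333, 0.745 and 0.895 CPM in sh-Control, 1.15, 0.958 and 0.849 CPM with shDDX41 #1 and 0.432, 0.843 and 0.727 CPM with shDDX41 #2, and its groups overlapped (0.57 ± 0.38, edgeR adjusted p = 0.232). Their host could not be compared: EIF4A1 was listed at 0 in all 9 libraries and the overlapping readthrough gene SENP3-EIF4A1 had 2 to 10 counts, and how reads in overlapping genes were counted is not given in the sources used here. The same limit holds for each member that overlaps an annotated exon of its host.

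The scaRNAs that passed the filter were SCARNA10 and SCARNA12, both of which bear C/D and H/ACA domains. SCARNA10 was at 0.111, 0.172 and 0.158 CPM in sh-Control, which is 2 to 3 counts, 1.02, 0.958 and 0.303 CPM with shDDX41 #1, and 0.270, 0.248 and 0.606 CPM with shDDX41 #2. It rose with shDDX41 #1 (2.32 ± 0.59, edgeR adjusted p = 0.00478), with library D at 5 counts against 16 to 17 in A and B, and its shDDX41 #2 libraries also lay above the controls (1.27 ± 0.68, edgeR adjusted p = 0.188). In a fit of the 6 libraries of shDDX41 #1 and sh-Control alone it did not pass the filter. SCARNA12 was at 1.22, 1.83 and 1.32 CPM in sh-Control, 0.904, 1.08 and 0.728 CPM with shDDX41 #1, below each control, and 1.24, 0.744 and 0.909 CPM with shDDX41 #2. Its log2 fold changes were -0.68 ± 0.31 (edgeR adjusted p = 0.0782) and -0.59 ± 0.30 (edgeR adjusted p = 0.162), the lowest among the 46 members with shDDX41 #1. The scaRNAs that did not pass the filter had few counts and were not tested. Mean CPM in sh-Control and with shDDX41 #1 were 0.517 and 0.402 for SCARNA9 and 0.479 and 0.360 for SCARNA27. They were 0.348 and 0.141 for SCARNA22, and 0.242 and 0.443 for SCARNA15, which went the other way.

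Host genes could be set beside 44 of the tested members, with 30 hosts among them. With shDDX41 #1, 35 members had a larger log2 fold change than their host, and the medians over these members were 1.03 for the members, 0.50 for the hosts and 0.62 for the difference. Of the 30 hosts, 24 were called higher and 3 lower with shDDX41 #1, against 23.7% and 24.1% of all tested genes. Hosts called higher were thus common among the hosts as a whole. Of the 26 called members with a tested host, the host was called higher for 24 and lower for 2. Those 2 were SNORA14B (1.53) in TOMM20 (-0.59), which encodes a mitochondrial import receptor, and SCARNA10 in NCAPD2 (-0.44), which encodes a condensin subunit. With shDDX41 #2, 34 of the 44 members had a smaller log2 fold change than their host, with a median difference of -0.49. Counts of members are far smaller than those of hosts, so the members' fold changes carry the larger error, and members that share a host are not independent.

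Across the members, the log2 fold change with shDDX41 #1 had little relation to their length (Pearson r = 0.011, Spearman rho = -0.136, 46 members), GC content (0.043 and 0.067, 46 members) or host fold change (-0.014 and 0.005, 44 members), and a weak inverse one to their total count (-0.303 and -0.28, 46 members). These describe genes that share libraries and, in part, hosts. The total count includes the shDDX41 #1 libraries, and members with few counts passed the filter more easily when high in 1 group. The relation to total count can therefore not be told apart from an effect of the filter. By position, 10 of 13 tested members in introns and 17 of 29 wholly within an exon of some host transcript were called higher with shDDX41 #1, and 0 of 4 partly within an exon. The share over all tested genes was 23.7%, and the difference between positions was not tested. The filter bears on these counts too, and position was not separated from it. Intronic SNORA26 and SNORA34, both called, had 2 to 7 counts in each library outside shDDX41 #1. Exonic SNORA21, also called, had 5 to 8.

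**Figure D4:**
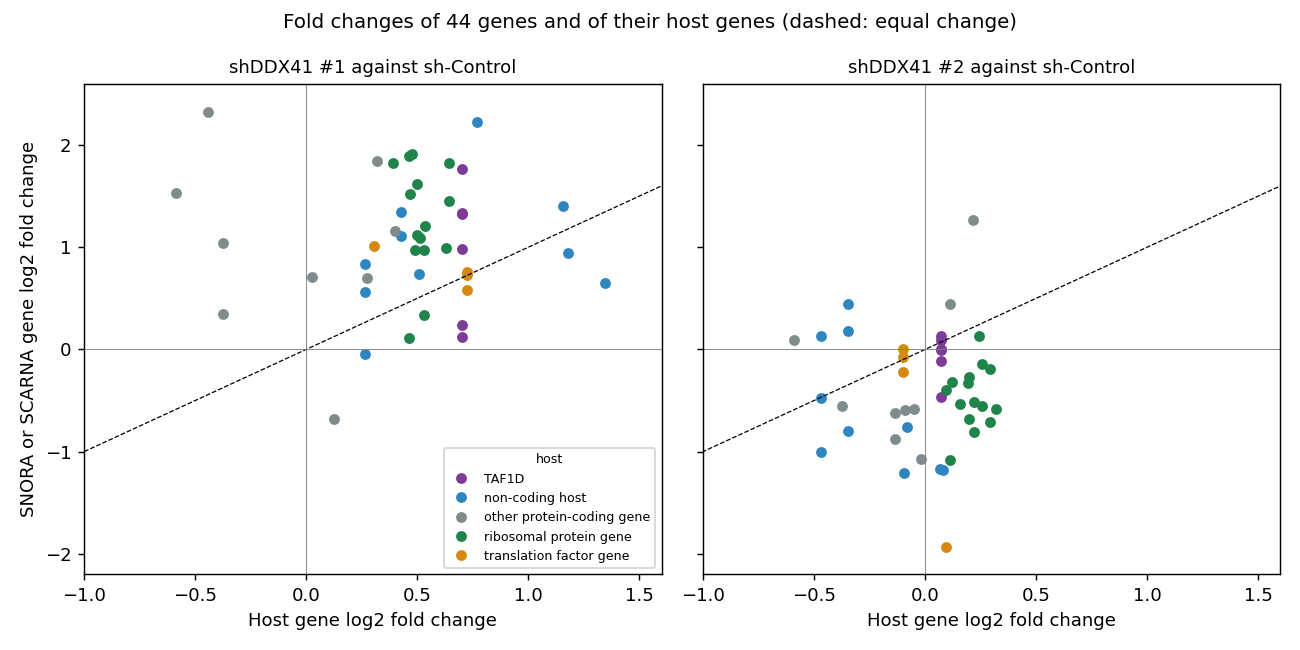
Log2 fold change of 44 members (vertical axis) against that of their host genes (horizontal axis) with shDDX41 #1 (left) and shDDX41 #2 (right), coloured by host class; the dashed line marks equal change. With shDDX41 #1 35 points lie above the line, and with shDDX41 #2 34 lie below it.

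A list was taken of genes for proteins that bind and assemble H/ACA RNAs, for 3' end trimming and decay, and for Cajal body proteins. With the RNA gene TERC it held 18 genes, of which 17 were tested. With shDDX41 #1, 4 were higher and 6 lower, with shDDX41 #2, 1 was higher and 7 lower, and between the hairpins 6 were higher and 4 lower with shDDX41 #1. Over all tested genes the shares were 23.7% and 24.1%, 11.6% and 13.4%, and 24.6% and 24.2% in the same order, so the counts for shDDX41 #1 lie near the background. DKC1, the pseudouridine synthase of the particle, was at 299 ± 20.0 CPM in sh-Control and 148 ± 7.80 with shDDX41 #1 (-1.02 ± 0.07, edgeR adjusted p = 2.42e-08), and at 261 ± 5.29 with shDDX41 #2 (-0.20 ± 0.07, edgeR adjusted p = 0.0403). Of the other core proteins, NHP2 was lower with shDDX41 #1 (-0.41, edgeR adjusted p = 0.000472), and NOP10 (-0.26, edgeR adjusted p = 0.0099) and GAR1 (-0.35, edgeR adjusted p = 0.00798) were lower with shDDX41 #2.

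Among the assembly factors, SHQ1, a chaperone of dyskerin, was higher with both hairpins (0.43, edgeR adjusted p = 0.000187, and 0.61, edgeR adjusted p = 2.79e-05), and the ATPase gene RUVBL2 was lower with shDDX41 #1 (-0.33, edgeR adjusted p = 0.00153). NAF1 and RUVBL1 were not called against sh-Control, nor were COIL and WRAP53, which encode Cajal body proteins. Among the genes of 3' end trimming and decay, the exosome nuclease gene EXOSC10 was lower with both hairpins (-0.36, edgeR adjusted p = 0.00335, and -0.78, edgeR adjusted p = 2.19e-05), and so was the deadenylase gene TOE1 (-0.32 and -0.37, edgeR adjusted p = 0.00611 and 0.00525). ZCCHC7, of the complex that tags RNAs for the exosome, was higher with shDDX41 #1 (0.44, edgeR adjusted p = 0.000664) and lower with shDDX41 #2 (-0.71, edgeR adjusted p = 6.19e-05). PARN, a deadenylase that trims H/ACA tails, and ZCCHC8 were higher with shDDX41 #1 (0.22 and 0.29, edgeR adjusted p = 0.0137 and 0.0111), the helicase gene SKIV2L2 was lower with it (-0.17, edgeR adjusted p = 0.0342), and the poly(A) polymerase gene PAPD5 was lower with shDDX41 #2 (-0.32, edgeR adjusted p = 0.00846). TERC, the telomerase RNA, which shares the H/ACA fold, had 0 to 4 counts a library and was not tested.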

How the data were processed

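Sorted MOLM13 cells were profiled by RNA-seq (3 groups of 3 libraries). RNA was isolated with a column kit, poly(A)-selected and made into TruSeq libraries, of the stranded kind per the labels and not so named in the study's methods. The submitters' processing notes name FastQC 0.11.7, HISAT2 2.0.5 and featureCounts 1.5.2, and the builds mm10 and hg38; the annotation and counting options are not given in the sources used here. The table the authors deposited holds raw counts per gene, and 0 of its columns of per-sample values were left unmapped. Its rows were used as symbols.

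Groups came from the labels. Counts were tested with edgeR 4.0.16 (R 4.3.3; TMM, filterByExpr with minimum count 10, quasi-likelihood F test over all 9 libraries), which kept 12712 of 30017 genes; two-sided p-values were adjusted over these by the Benjamini-Hochberg method, and calls are at adjusted p under 0.05. CPM are TMM-scaled. DESeq2 1.42.0 and limma 3.58.1 (voom) were alternatives. The fit was tested on simulated data. Members, lists and tests were chosen with earlier results of these data known. Named members were the 6 rises and 6 falls per comparison with the smallest adjusted p, the 5 with the highest mean CPM and the scaRNAs that passed the filter; SNORA45, SNORA10 and SNORA48 were added after the data were seen, as partners in a host. Hosts are genes that hold a member on the same strand in GENCODE release 29 or, where none does, pairs from general knowledge. Replicate letters were not treated as pairs: correlations of deviations between same-lettered libraries ran from -0.057 to 0.243. Between sh-Control and shDDX41 #1 the same-lettered values were 0.073, 0.158 and 0.243, above the -0.184 to 0.066 of their differently lettered libraries. A fit with the letters as a block is therefore given below.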

Additional observations from a re-analysis of the deposited data

Results flagged for a closer look

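For 14 of the named members the fold change against sh-Control differed between the hairpins, by edgeR's direct comparison of shDDX41 #1 with shDDX41 #2 (adjusted p under 0.05). Of all tested genes, 24.6% were called higher and 24.2% lower in that comparison. Members were named in part for a small adjusted p in it, so the selection favours a high count, which is a description only. The log2 difference, shDDX41 #1 minus shDDX41 #2, was 3.43 for SNORA26, 2.94 for SNORA41, 2.38 for SNORA45, 2.16 for SNORA73A, 2.11 for SNORA24, 2.08 for SNORA64 and 2.05 for SNORA70. It was 1.79 for SNORA25, 1.76 for SNORA1, 1.6 for SNORA3, 1.45 for SNORA32, 1.26 for SNORA67, 0.84 for SNORA8 and 0.83 for SNORA10. Single libraries were not examined as outliers, since the groups held 3 each. DDX41 was lower with shDDX41 #1 than with shDDX41 #2 (log2 difference -1.79), and the part of that in these differences was not tested.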

How the results depend on the processing

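Of the counts and medians over the members, 115 alternative values kept their direction and stayed near the reported value and 8 moved. With a minimum of 10 counts in every library, which left 21 members, 14 were called with shDDX41 #1 and 17 between the hairpins; at an adjusted p under 0.01, 1 was called with shDDX41 #2. Leaving out single libraries gave 22 to 32, 1 to 6 and 28 to 38 calls with shDDX41 #1, with shDDX41 #2 and between the hairpins. With shDDX41 #2 the 6 calls came without sh-Control A, and 5 came without shDDX41 #1 D. Each of these 2 fits included SNORA55, which the filter of the main fit left out, as its 1 call that was higher. Without control libraries B and D and shDDX41 #2 B there was 1 call each. A fit with the replicate letters as a block called 29, 3 and 33 members, and the samples share only a letter. With 1 member per host, chosen after seeing the data, 20, 3 and 23 of 31 were called. Fold changes of named members changed sign in 27 cases, 0 of them called. Leaving out single libraries, the shDDX41 #2 log2 fold changes ranged from -0.154 to 0.150 for SNORA18, -0.535 to 0.125 for SNORA64, -0.131 to 0.26 for SNORA1, -0.323 to 0.091 for SNORA3, -0.444 to 0.184 for SNORA32, -0.887 to 0.085 for SNORA45 and -0.295 to 0.314 for SNORA48, that of SNORA18 with shDDX41 #1 from -0.025 to 0.276, and that of SCARNA12 between the hairpins from -0.258 to 0.137. With shDDX41 #2, SNORA18 was also 0.001 with DESeq2 size factors, with no filter, by DESeq2 and in the 6 libraries compared, 0.027 with upper quartile factors and 0.016 by limma voom, and with library size only SNORA1 was -0.017 and SNORA48 -0.001. The causes were not tested. Depth limits the precision for members: the median tested member had 22.2 counts a library.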
